A study of Mus musculus with 8 samples.

Results

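The mouse major histocompatibility complex (MHC, called H2) and the genes before it on chromosome 17 were examined gene by gene in 8 libraries of embryonic posterior trunk. The genes were chosen by position and by read total: every gene that starts between 30584936 and 35584936 on chromosome 17 (GRCm38) and has at least 80 reads over the 8 libraries, without Notch4, Apom, Ring1, Pbx2, Col11a2 and the ribosomal protein gene Rps28. Of 55573 genes in the table, 319 start in this region, 133 of them have 80 reads and 127 were kept. Rps18, Glo1 and H2-Ab1 were selected on their levels, because libraries of 1 genotype disagree there. The region starts at the same base as Glo1, so the choice of region is tied to this selection. The disagreement of these 3 genes, and that of their neighbours, is therefore given as a description with no test. The same holds for counts of disagreeing genes among the 127 that are set beside shares of all genes.

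The libraries were 3 of homozygous Prtg knockout embryos (Prtg-/-, KO), 3 of heterozygous embryos (Prtg+/-, Het) and 2 of wild-type embryos (WT). All embryos were of C57BL/6 background, came from Het intercrosses, were taken at embryonic day 9.5 and were cut between somites 12 and 13, with the part behind the cut used for poly(A) RNA. The knockout allele, which the Het mice of the crosses also carry, is not described further in the sources used here. Litters are not named either, and p-values cover the spread of these samples alone. Library numbers such as KO 2-3 are those of the deposited columns and match no sample number in the labels.

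The MHC holds class I and class II genes, whose cell surface proteins present peptides to T cells. Class I heavy chains pair with beta-2 microglobulin on many cell types, while class II chains are mostly found on antigen-presenting cells. Between and beside these genes lie unrelated genes with housekeeping roles, among them Rps18, which encodes a protein of the small ribosomal subunit, and Glo1, which encodes glyoxalase I, the enzyme that clears the glycolysis by-product methylglyoxal. Several of these genes have processed copies elsewhere in the genome, made from spliced RNA, whose sequence is close to that of the parent gene.

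The sequences below are shown because the levels of Rps18 and of its copies differed between KO libraries, and because few bases tell each copy from its parent. They are spliced coding stretches of GENCODE M21 transcripts (GRCm38), with the bases at which a parent and a copy differ in capitals and positions counted from 1 at the first base of the start codon. Rps18 lies at chr17:33951999-33956001 on the minus strand, Gm11361 on chromosome 13 and Rps18-ps3 on chromosome 8. Coding positions 146 to 206 read as follows.
Rps18: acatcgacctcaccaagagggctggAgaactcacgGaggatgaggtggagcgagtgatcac
Gm11361: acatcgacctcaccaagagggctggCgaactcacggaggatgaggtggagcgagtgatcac
Rps18-ps3: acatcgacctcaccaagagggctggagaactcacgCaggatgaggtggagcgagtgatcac
The substitutions from parent to copy are A171C in Gm11361 and G181C in Rps18-ps3. Coding positions 312 to 362 hold A337C, which both copies carry.
Rps18: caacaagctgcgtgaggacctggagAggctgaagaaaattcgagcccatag
Gm11361: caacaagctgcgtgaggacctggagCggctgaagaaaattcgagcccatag
Rps18-ps3: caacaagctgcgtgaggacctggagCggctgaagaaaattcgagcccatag
Gm11361, annotated as a protein-coding gene, differed from Rps18 at 4 of 540 aligned bases, and the pseudogene Rps18-ps3 at 3 of 456. Gm13443, a processed pseudogene on chromosome 2, differed from Glo1 at 3 of 555 bases, and their sequences are not shown.

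Of these genes Rps18 had the widest range within a genotype on the log2(CPM + 0.5) scale, on which genes with 0 reads in a library are held back by the added 0.5. It had 446, 749 and 17.1 CPM (counts per 1000000 counted reads, scaled by TMM) in KO 1-3, KO 2-2 and KO 2-3, 341, 355 and 383 CPM in Het libraries and 323 and 355 CPM in WT libraries. The Het and WT libraries lay close together, KO 2-2 lay above all of them and KO 2-3 far below. The value in KO 2-3 rests on 298 reads (95% exact Poisson interval 15.2 to 19.2 CPM) and that in KO 2-2 on 12798 reads (736 to 762 CPM). Intervals here cover counting error only, since reads without molecular identifiers are not independent molecules. The difference between KO 2-2 and KO 2-3 was 5.41 on the log2(CPM + 0.5) scale. The range was 0.17 within Het. Rps18 overlaps Vps52, a gene of vesicle tethering on the other strand, and the library kit does not mark strand. Vps52 was at 61.3, 60.0 and 56.5 CPM in the KO libraries, 68.3, 54.7 and 58.3 CPM in Het and 56.4 and 57.7 CPM in WT, with no such gap. Of 12 other genes of the small ribosomal subunit, the summed level was 8512, 7429 and 8087 CPM in KO 1-3, KO 2-2 and KO 2-3, 7067 to 7701 CPM in Het and 7019 and 7703 CPM in WT. Rps3 was at 1399, 1141 and 1220 CPM and Rps19 at 463, 379 and 397 CPM in the same KO libraries, and neither had a library as far below the rest as Rps18 in KO 2-3.

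**Figure D1:**
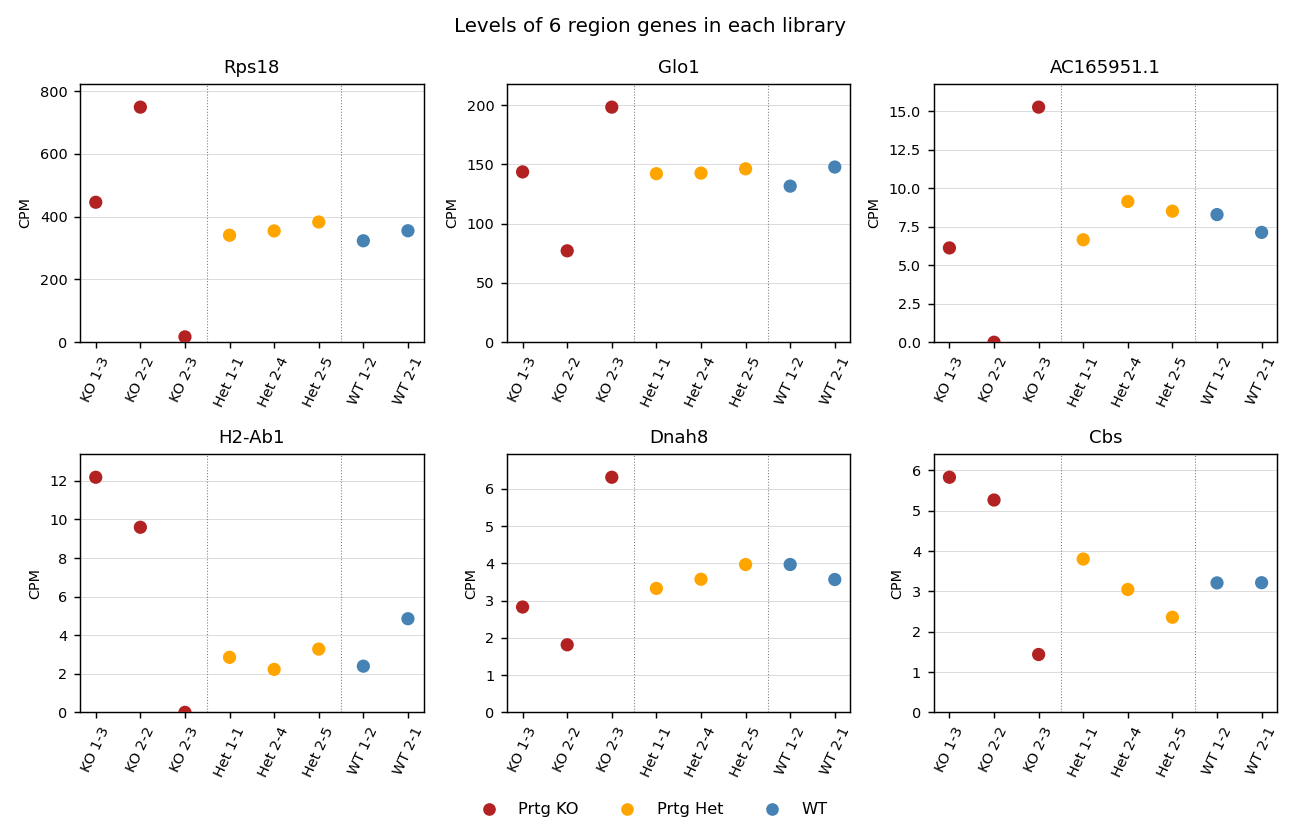
CPM (vertical axes, from 0) of 6 region genes in each library (horizontal axes; KO red, Het orange, WT blue, 1 point per library). Rps18 is at 17.1 CPM in KO 2-3 and 749 CPM in KO 2-2, with the 5 Het and WT points at 323 to 383 CPM, and Glo1, AC165951.1 and Dnah8 have the opposite order of the same KO libraries.

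The copies of Rps18 did not follow their parent. Gm11361 was at 58.2, 14.4 and 77.2 CPM in KO 1-3, KO 2-2 and KO 2-3, at 38.1, 41.1 and 40.6 CPM in Het and at 42.0 and 35.9 CPM in WT. It was lowest in the KO library where Rps18 was highest, and highest where Rps18 was lowest. Rps18-ps3 was at 18.2, 5.09 and 16.6 CPM in KO, at 13.2, 13.2 and 14.4 CPM in Het and at 11.7 and 12.9 CPM in WT. Both copies together took 14.6%, 2.54% and 84.6% of the reads counted for Rps18 and them in KO 1-3, KO 2-2 and KO 2-3, against 12.5% to 13.3% in Het and 12.1% and 14.3% in WT. The 95% Wilson interval of that share was 82.9% to 86.1% in KO 2-3 and 2.28% to 2.82% in KO 2-2. The sum of the 3 genes was 522, 768 and 111 CPM in KO, 392 to 438 CPM in Het and 377 and 404 CPM in WT. The sum thus had the same order of KO libraries as Rps18 alone.

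Glo1 (chr17:30584936-30626871, minus strand) had the opposite order of the same KO libraries. It was at 144, 77.1 and 198 CPM in KO 1-3, KO 2-2 and KO 2-3, 142, 143 and 146 CPM in Het and 132 and 148 CPM in WT. KO 2-2 lay below and KO 2-3 above every Het and WT library, while KO 1-3 lay among them. The mean of KO 2-2 and KO 2-3 was 138 CPM, which lies inside the Het and WT range of 132 to 148 CPM. Its copy Gm13443 was at 28.2, 1.52 and 61.9 CPM in KO 1-3, KO 2-2 and KO 2-3, 34.2, 31.1 and 34.1 CPM in Het and 30.6 and 33.3 CPM in WT. Here the copy followed its parent in direction, with a wider gap: the difference KO 2-2 minus KO 2-3 was -4.95 for Gm13443 and -1.36 for Glo1 on the log2 scale. The mean of both KO libraries was 31.7 CPM for Gm13443, again inside the Het and WT range. Of the rest of the glyoxalase pathway, Hagh, which encodes glyoxalase II, was at 13.0, 9.54 and 11.3 CPM in KO, 9.20 to 9.63 CPM in Het and 10.5 and 10.7 CPM in WT.

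The search for copies covered 109 protein-coding genes of the 127, and Rps28, against all GENCODE M21 transcripts outside the region. It kept matches of at least 97% identity over at least 80% of the copy and 250 bases, and found 9 copies, 7 of them with 80 reads. The copies of other parents did not all vary. Rab11b-ps2, 1 base from Rab11b over 654, was at 15.1, 13.3 and 15.4 CPM in KO, 13.9 to 15.3 CPM in Het and 18.0 and 15.4 CPM in WT. Gm10232, 2 bases from the splicing factor gene U2af1 over 720, was at 50.9, 57.9 and 61.1 CPM in KO, 56.8 to 62.0 CPM in Het and 57.1 and 59.8 CPM in WT. Gm10263, a copy of Rps28, was at 9.60, 3.75 and 11.1 CPM in KO 1-3, KO 2-2 and KO 2-3, against 7.19 to 8.28 CPM in Het and 5.49 and 7.84 CPM in WT. Rps28 itself was at 25.2, 20.2 and 24.3 CPM in KO and 16.6 to 19.7 CPM in Het and WT. The 9 copies were sought after the levels were known, so they describe these libraries and give no test.

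**Figure D2:**
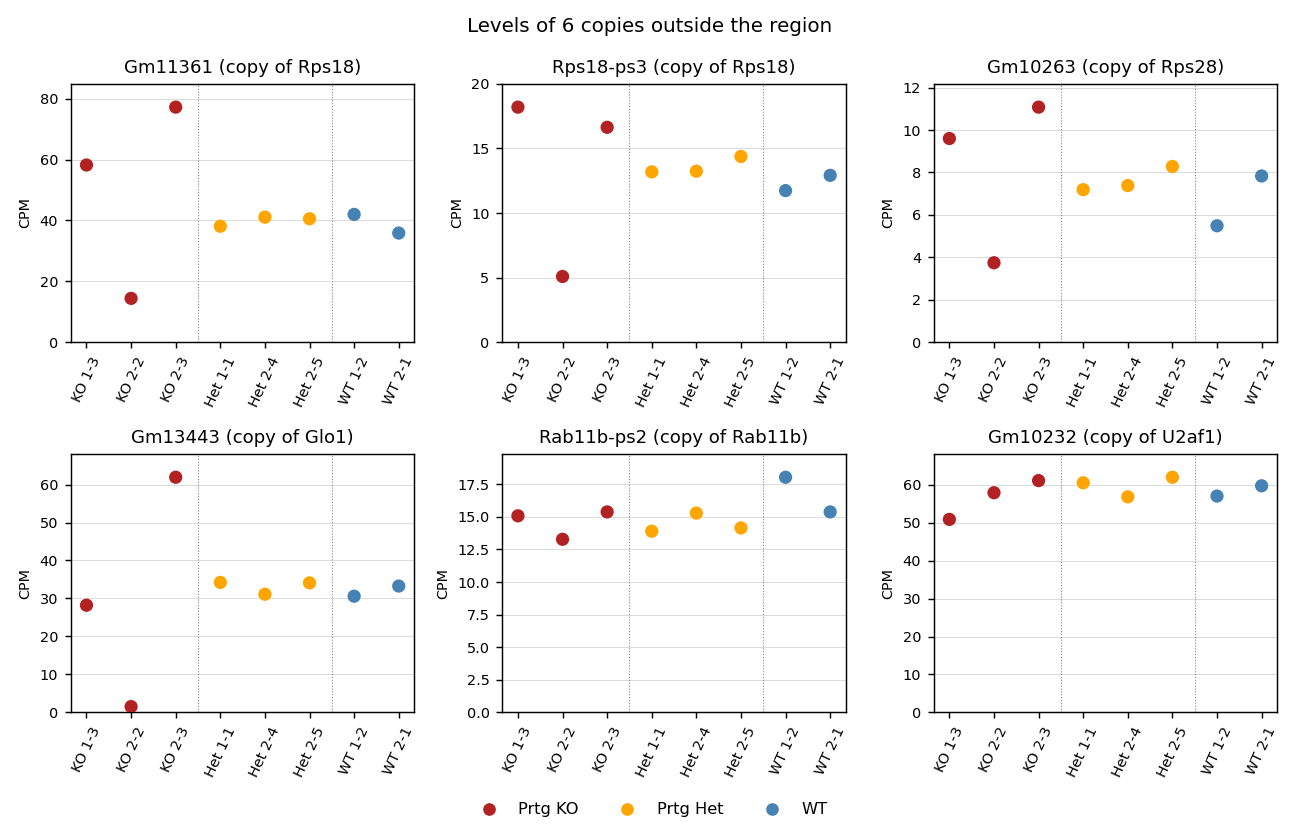
CPM (vertical axes, from 0) of 6 copies outside the region in each library (1 point per library; KO red, Het orange, WT blue). The copies of Rps18, Rps28 and Glo1 have their lowest point in KO 2-2 (1.52 CPM for Gm13443), while those of Rab11b and U2af1 stay within 13.3 to 18.0 and 50.9 to 62.0 CPM.

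Near Glo1 lie 2 more genes with the same order. AC165951.1, annotated as an antisense transcript, was at 6.13, 0 and 15.3 CPM in KO 1-3, KO 2-2 and KO 2-3, 6.66, 9.14 and 8.51 CPM in Het and 8.29 and 7.13 CPM in WT. It had 0 reads in KO 2-2, where a count of 0 allows up to 0.176 CPM (3 reads). In KO 2-3 it had 266 reads, which is 87.0-fold that limit with the counting error of KO 2-3 left out. It overlaps Glp1r, the GLP-1 receptor gene on the other strand, which was at 2.30, 1.46 and 1.78 CPM in KO, 1.00 to 1.19 CPM in Het and 1.34 and 0.643 CPM in WT. Dnah8, an axonemal dynein heavy chain gene, was at 2.83, 1.81 and 6.31 CPM in KO 1-3, KO 2-2 and KO 2-3, 3.33, 3.57 and 3.97 CPM in Het and 3.97 and 3.57 CPM in WT. Dnah8 and Glo1 overlap on opposite strands, and reads where they overlap cannot be told apart.

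The classical class II gene H2-Ab1, which encodes the beta chain of H2-A, was detected in 7 of 8 libraries. It had 207, 164 and 0 reads in KO 1-3, KO 2-2 and KO 2-3 (12.2, 9.60 and 0 CPM), 48, 38 and 57 reads in Het (2.85, 2.23 and 3.28 CPM) and 41 and 83 reads in WT (2.39 and 4.85 CPM). The count of 0 in KO 2-3 allows up to 0.172 CPM. KO 1-3 was at 70.8-fold, KO 2-2 at 55.7-fold and the lowest Het library at 12.9-fold that limit. These ratios leave out the counting error of the library that is compared. Its partner H2-Aa, the alpha chain gene, had at most 6 reads in any library and is not among the 127. Cd74, the invariant chain gene, had 1 to 8 reads per library and Ciita, the class II activator gene, 3 to 13. Ptprc (CD45) had 0 to 3 reads, Adgre1 0 or 1, Cx3cr1 0 or 1 and Cd3e 0. Csf1r had 12 to 19 reads in KO, 8 to 12 in Het and 7 and 16 in WT. Cd68, with the most reads of the myeloid markers, had 74, 34 and 47 in KO 1-3, KO 2-2 and KO 2-3. It had 52, 60 and 37 in Het and 53 and 41 in WT. Fcer1g had 2 to 10 reads per library and the lymphoid marker Cd79a 1 to 10. The summed level of 8 myeloid markers was 5.77, 3.51 and 4.25 CPM in KO, 3.22 to 4.40 CPM in Het and 4.04 and 4.15 CPM in WT, and that of 3 lymphoid markers was at most 0.585 CPM. H2-DMa, which encodes a chain of the peptide exchange factor, was at 2.00, 0.761 and 2.35 CPM in KO, 1.5 to 2.02 CPM in Het and 1.81 and 2.40 CPM in WT. H2-DMa overlaps the much more abundant Brd2 on the other strand. H2-Oa, with 88 reads in all, was at 0.943, 0.878 and 0.746 CPM in KO, 0.238 to 0.586 CPM in Het and 0.934 and 0.351 CPM in WT. The class II genes thus had 3 of 10 with 80 reads. In edgeR 0 of these 3 were called in any comparison of genotypes, where 0% to 0.332% of all genes were, so nothing particular to them can be read from the count.

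Class I heavy chain genes were at low to moderate levels, and KO 1-3 had the highest value of each of the 9 with 80 reads. H2-K1 was at 43.7, 16.9 and 14.1 CPM in KO 1-3, KO 2-2 and KO 2-3, 10.8, 14.9 and 16.0 CPM in Het and 15.5 and 17.02 CPM in WT. H2-D1 was at 37.1, 22.0 and 27.5 CPM in KO, 20.6, 19.9 and 23.2 CPM in Het and 20.7 and 25.2 CPM in WT. The KO 1-3 library lay above all others for both genes. H2-Q4 was at 26.5, 18.4 and 14.4 CPM in KO, 14.9 to 16.5 CPM in Het and 15.4 and 16.7 CPM in WT. H2-Q10 was at 11.1, 2.98 and 1.61 CPM in KO, 1.07 to 2.34 CPM in Het and 2.51 and 2.98 CPM in WT. Here KO 1-3 stood alone, and KO 2-2 and KO 2-3 lay within or near the range of the others. H2-Q6 was at 14.3, 9.30 and 4.36 CPM in KO, 4.86 to 5.58 CPM in Het and 6.60 and 6.32 CPM in WT. H2-Q7 was at 14.4, 11.7 and 3.33 CPM in KO, 7.78 to 8.11 CPM in Het and 10.5 and 7.89 CPM in WT. For these Q genes KO 1-3 and KO 2-2 lay above, and KO 2-3 below, every Het and WT library. H2-K2 (1.94, 1.11 and 0.172 CPM in KO, 0.292 to 0.467 CPM in Het and WT) and H2-Q2 (1.36, 1.11 and 0.115 CPM in KO, 0.173 to 1.06 CPM in Het, 0.467 and 0.877 CPM in WT) were low and had the same order. H2-Q5 had 15, 15 and 0 reads in KO, 9 to 12 in Het and 11 and 13 in WT. The summed level of the class I genes was 151, 85.1 and 65.6 CPM in KO, 62.5 to 72.5 CPM in Het and 73.0 and 78.1 CPM in WT. These genes are close in sequence, so reads could be split among them in counting, and the split is uncertain. B2m, on another chromosome, was at 18.7, 15.8 and 17.7 CPM in KO, 17.8 to 22.2 CPM in Het and 22.8 and 19.1 CPM in WT.

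**Figure D3:**
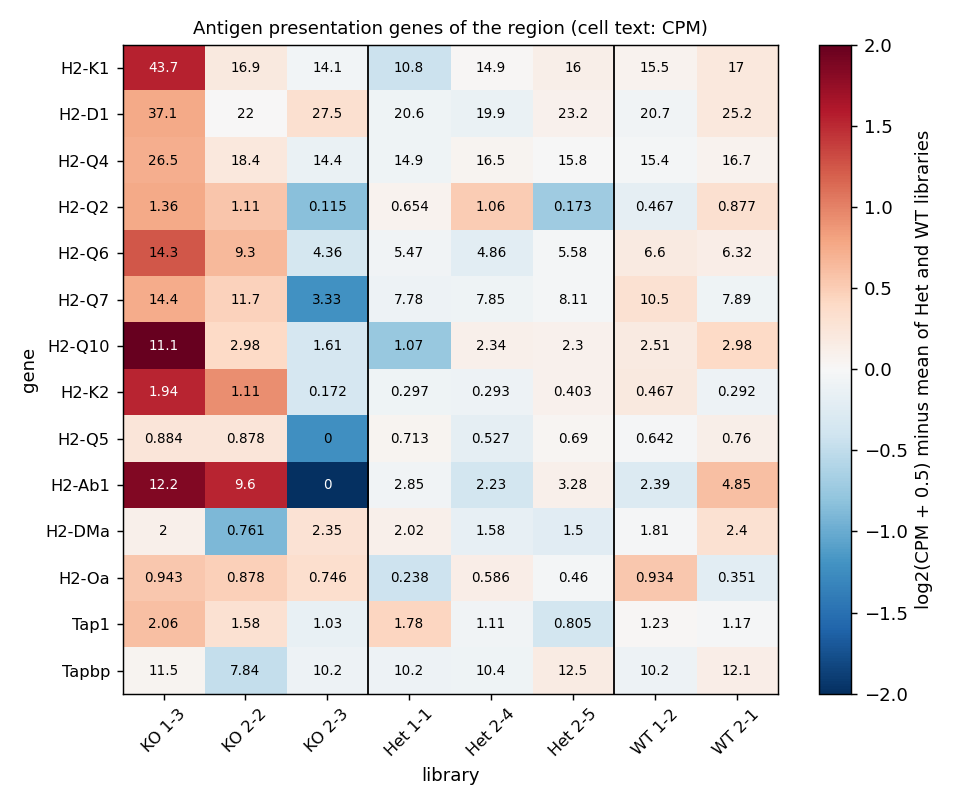
Antigen presentation genes with 80 reads (rows) in each library (columns, KO left, then Het, then WT). Cell text is CPM, and colour is log2(CPM + 0.5) minus the mean of the 5 Het and WT libraries, cut off at -2 and 2. H2-K1 (43.7 CPM) and H2-Q10 (11.1 CPM) stand out in KO 1-3 and H2-Ab1 (0 CPM) in KO 2-3.

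Of the genes that supply or load peptides, Tap1 and Tapbp had 80 reads and Tap2, Psmb8 and Psmb9 did not. Tapbp, which encodes tapasin, was at 11.5, 7.84 and 10.2 CPM in KO, 10.2 to 12.5 CPM in Het and 10.2 and 12.1 CPM in WT. Tap1, a subunit gene of the peptide transporter, was at 2.06, 1.58 and 1.03 CPM in KO, 0.805 to 1.78 CPM in Het and 1.23 and 1.17 CPM in WT. The complement genes C4a, C2 and Cfb summed, with C4b, to 3.89 to 5.03 CPM in KO, 3.63 to 4.89 CPM in Het and 3.97 and 4.33 CPM in WT, and the groups overlap. None of the cytokine genes Tnf, Lta and Ltb of the region reached 80 reads. Of 17 presentation genes elsewhere in the genome, 15 were tested and 0 were called, where 0% to 0.332% of all genes were, with a median KO minus WT value of -0.01 on the log2 scale.

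Further genes outside class I and class II had KO 2-2 high and KO 2-3 low. Cbs, which encodes cystathionine beta-synthase of sulfur amino acid metabolism, was at 5.83, 5.27 and 1.44 CPM in KO 1-3, KO 2-2 and KO 2-3, 3.80, 3.05 and 2.36 CPM in Het and 3.21 and 3.22 CPM in WT. The pseudogene Cyp4f41-ps was at 2.06, 2.05 and 0.402 CPM in KO, 1.5 to 1.78 CPM in Het and 1.23 and 1.46 CPM in WT. Zfp952, a zinc finger gene, was at 9.31, 14.5 and 6.77 CPM in KO, 8.91 to 9.95 CPM in Het and 8.64 and 10.7 CPM in WT. The other 12 genes of the 127 with a Zfp symbol spanned 1.07-fold to 1.5-fold within KO. CR974462.5, a processed pseudogene 0.03 Mb from Rps18, was at 0.707, 3.16 and 0.0574 CPM in KO, 0.938 to 1.5 CPM in Het and 1.17 and 1.70 CPM in WT. Toward the far end, Vwa7 was at 1.77, 2.22 and 0.804 CPM in KO, 1.5 to 1.88 CPM in Het and 2.16 and 1.52 CPM in WT, and Atp6v1g2, a subunit gene of the vacuolar proton pump, at 2.95, 4.80 and 2.07 CPM in KO, 3.03 to 4.22 CPM in Het and 4.03 and 3.04 CPM in WT.

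Counted over all 127 genes, 15 of 124 with at least 1 CPM in a library had KO 2-2 and KO 2-3 at least 2-fold apart with all 5 Het and WT libraries between them. The count was chosen after the levels were seen. Over all 15230 genes with 80 reads and 1 CPM it was 50, or 0.328%, and 15 of those 50 are among the 127, which is 12.1% of the 124. Of the 15, 12 were higher in KO 2-2 and 3 in KO 2-3, and those 3 are Glo1, Dnah8 and AC165951.1 at the start of the region. Outside the region, 2 genes of chromosome 17 and 33 of other chromosomes had the pattern. The 33 include Gm11361, Rps18-ps3, Gm13443 and Gm10263, the copies of Rps18, Glo1 and Rps28 named above. For KO 1-3 against KO 2-2 the count was 2 of 124, against 0.84% over all genes, and for KO 1-3 against KO 2-3 it was 12 of 124, against 0.886%. The 12 include Rps18, Cbs, H2-Ab1, H2-Q6 and H2-Q7. KO 2-2 and KO 2-3 agree in Xist, at 3.57 and 2.18 CPM, and in 4 genes of the Y chromosome, at 157 and 154 CPM in sum, while KO 1-3 had 1101 CPM of Xist. In Het 1-1, Het 2-4 and WT 1-2 Xist was at 815.4, 802.5 and 849.5 CPM. Het 2-5 and WT 2-1 had 3.57 and 1.52 CPM of Xist, and 162 and 144 CPM of the Y chromosome genes. Libraries with high and with low Xist thus occur in each genotype. Primitive erythroid markers summed to 4076, 5982 and 3741 CPM in KO 1-3, KO 2-2 and KO 2-3, 2633 to 4258 CPM in Het and 5399 and 2672 CPM in WT, and yolk sac endoderm markers to 23.9, 13.2 and 16.6 CPM in KO, 11.2 to 22.0 CPM in Het and 19.6 and 23.7 CPM in WT. Their part in the pattern was not tested. In bulk tissue, fewer cells of a type and less RNA per cell cannot be told apart.

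**Figure D4:**
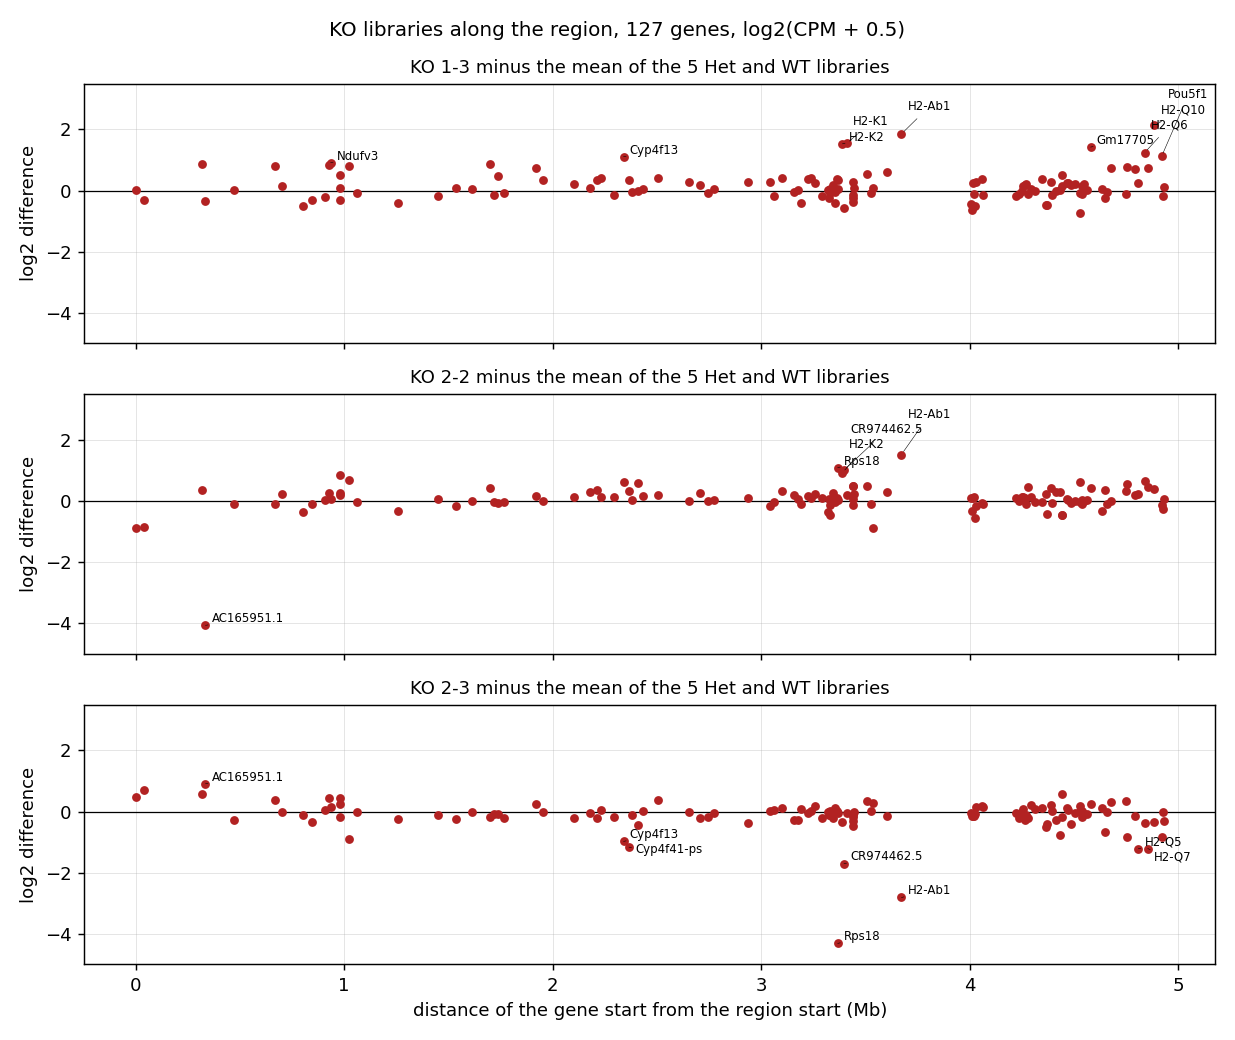
Each point is 1 of the 127 genes, placed by the distance of its start from the start of the region in Mb (horizontal axis) and by its log2(CPM + 0.5) in 1 KO library minus the mean of the 5 Het and WT libraries (vertical axis). In KO 2-2 Glo1, Dnah8 and AC165951.1 at the start lie below 0 and Rps18 above, in KO 2-3 they lie on the opposite sides, and in KO 1-3 H2-K1, H2-Q6 and H2-Q10 lie above 0. Genes 0.9 or more from 0 are named.

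Counted per library, KO 2-3 lay at least 1.5-fold above or below every other library for 8 of 124 genes, against 0.184% of all genes, and KO 2-2 for 5 of 124, against 0.223%. The 8 were AC165951.1 and Dnah8 on the high side and CR974462.5, Cyp4f41-ps, H2-Ab1, H2-Q7, Rps18 and Vwa7 on the low side. KO 1-3 did so for 7 of 124, all of them higher, against 3.22% of all genes. These 7 were H2-K1, H2-K2, H2-Q6, H2-Q10, Pou5f1, Ndufv3 and Gm17705. Ndufv3, a subunit gene of respiratory complex I, was at 70.0, 38.9 and 40.9 CPM in KO, 32.9 to 38.9 CPM in Het and 38.4 and 38.7 CPM in WT. Pou5f1, the pluripotency factor gene, was at 5.89, 2.17 and 1.15 CPM in KO, 1.43 to 2.81 CPM in Het and 2.16 and 3.68 CPM in WT. A Het or WT library stood apart in this way for 1 of 124 genes, Gm17705, against 0.794% of all genes.

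A range of 2-fold or more between libraries of 1 genotype, among genes at 1 CPM or more in that genotype, was found for 24 of 123 genes within KO, against 4.74% of all genes. Within Het it was found for 1 of 115 genes, H2-Q2, against 1.92%, and within WT for 0 of 118, against 1.09%. Within any genotype it was 24 of 124, against 6.7%. The region is tied to genes selected on such disagreement, so the shares here are a description and no test. The median range over these 123, 115 and 118 genes was 0.42 within KO, 0.19 within Het and 0.12 within WT on the log2 scale, and over all genes at 1 CPM or more it was 0.27, 0.19 and 0.12. WT had 2 libraries and the others 3, so its ranges are smaller by construction. Leaving out 1 KO library gave a KO count of 6 (without KO 2-3) to 18 in place of 24. A range over the 2 KO libraries left is likewise smaller by construction. The count over all genes without KO 2-3 is not given here. In the 5 Mb before the region 5 of 100 genes had such a range within KO and in the 5 Mb after it 3 of 39. Other genes with such a range within KO were Cyp4f13, a cytochrome P450 gene, at 2.59, 1.70 and 0.230 CPM in KO, 0.575 to 0.820 CPM in Het and 1.87 and 0.994 CPM in WT, and Ly6g5b at 0.118, 1.11 and 0.689 CPM in KO, 0.518 to 0.832 CPM in Het and 0.526 and 0.292 CPM in WT. Gm17705, a long noncoding RNA gene, was at 2.59, 1.05 and 0.861 CPM in KO, 0.119 to 0.762 CPM in Het and 1.34 and 0.819 CPM in WT. Gm26549 (2.06-fold) and Sapcd1 (2.04-fold) complete the 24.

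**Figure D5:**
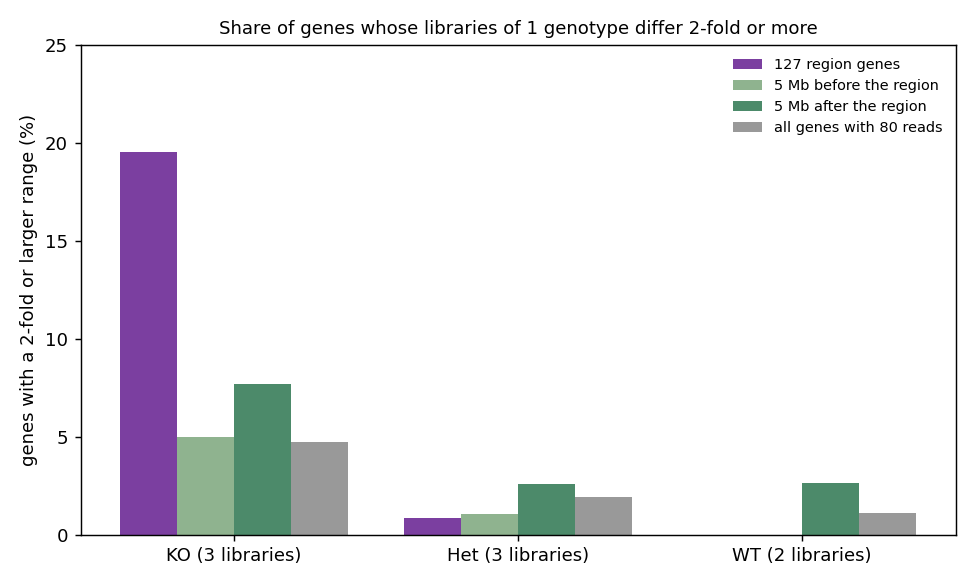
Share of genes (vertical axis, percent, from 0) whose libraries of 1 genotype differ 2-fold or more, for the 127 region genes, the 5 Mb on either side and all genes with 80 reads, grouped by genotype. Each share is taken over those genes with at least 1 CPM in a library of that genotype, 123 of the 127 within KO. Within KO the region genes are at 19.5%, against 5% before the region, 7.69% after it and 4.74% of all genes. The region is tied to genes selected on such disagreement, so these shares are a description and no test.

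Most of the 127 genes were steady. Over the 8 libraries 97 of them spanned less than 2-fold and 67 less than 1.5-fold, on the log2(CPM + 0.5) scale turned back to a ratio. Per length, the level of a gene averaged over the libraries ran from 0.137 FPKM (counts per kilobase of exon and 1000000 counted reads) for Dnah8 to 195 FPKM for Ddx39b, with a median of 4.78 FPKM, against 5.02 FPKM over all genes with 80 reads. At 10 FPKM or more there were 46 genes and below 1 FPKM 31. The highest after Ddx39b, an RNA helicase gene of splicing and export, were Rps18 (151 FPKM), Ddah2 (135 FPKM), which breaks down dimethylarginine, and Prrc2a (118 FPKM). Among 12 genes of RNA processing, all with 80 reads, Ddx39b was at 730, 693 and 748 CPM in KO, 699 to 810 CPM in Het and 797 and 727 CPM in WT. Vars, the valyl-tRNA synthetase gene, was at 456, 567 and 384 CPM in KO, 450 to 512 CPM in Het and 479 and 442 CPM in WT, with KO 2-2 highest and KO 2-3 lowest. Among 13 chromatin and transcription genes with 80 reads, Brd2 was at 391, 388 and 414 CPM in KO, 389 to 428 CPM in Het and 432 and 415 CPM in WT, and Bag6 and Ehmt2 likewise overlapped between genotypes. Hspa1b and Hspa1l were the HSP70 genes with 80 reads. Hspa1b and its near-identical neighbour Hspa1a share reads, so its level is uncertain.

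The comparisons of genotypes asked whether loss of Prtg shifts the level of these genes. Prtg itself was at 268, 254 and 237 CPM in KO, 250, 241 and 282 CPM in Het and 317 and 386 CPM in WT, with KO and Het overlapping, and the sources used here do not say which part is deleted, which limits Prtg counts as a check of the labels. Total counts lay between 16874860 and 17511964 per library, and libraries of 1 genotype always differed by more than counting error (4.88 to 27.1 times its variance). A list of 5 posterior trunk markers summed to 717 to 831 CPM in KO, 560 to 651 CPM in Het and 571 and 697 CPM in WT, present in all libraries.

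In edgeR (quasi-likelihood test, adjusted after Benjamini and Hochberg over 16262 genes), 0 of the 127 were called in KO minus WT, against 0.0369% of all genes, and 0 in KO minus Het, against 0.191%. In Het minus WT 0 were called, against 0% of all genes, and in KO minus the mean of Het and WT 0 were called, against 0.332%. At an unadjusted p below 0.05 there were 8, 18, 1 and 18 of the 127 in these comparisons, or 6.3%, 14.2%, 0.787% and 14.2%. Over all genes there were 1170, 1765, 292 and 1956, or 7.19%, 10.9%, 1.8% and 12%. DESeq2 called 0 of the 127 in the pairwise comparisons and 1 in KO minus the mean of Het and WT, and edgeR with no filter on low counts called 0, 4, 0 and 4. The share of all genes called in these alternative fits is not given here, so nothing particular to the 127 can be read from them. These comparisons share libraries and are not independent of each other. The median log2 difference over the 127 was 0.04 in KO minus WT, 0.04 in KO minus Het and -0.04 in Het minus WT, against 0.01, 0.01 and 0.00 over all genes tested.

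For Rps18 and Glo1 the differences between genotypes were smaller than their standard errors, and for H2-Ab1 the difference was larger than its error but was not called. Rps18 averaged 404 ± 368 CPM in KO (SD, n = 3), 360 ± 21.5 CPM in Het (SD, n = 3) and 339 ± 22.6 CPM in WT (SD, n = 2). Its KO minus WT value was 0.25 ± 0.87 (log2, SE, edgeR adjusted p = 0.965) and its KO minus Het value 0.17 ± 0.77 (edgeR adjusted p = 0.949). Without KO 2-2 these values were -0.55 and -0.64, and without KO 2-3 they were 0.82 and 0.73. Glo1 averaged 140 ± 60.7 CPM in KO, 144 ± 2.26 CPM in Het and 140 ± 11.4 CPM in WT. Its KO minus Het value was -0.04 ± 0.24 (edgeR adjusted p = 0.959). H2-Ab1 averaged 7.26 ± 6.42 CPM in KO, 2.79 ± 0.529 CPM in Het and 3.62 ± 1.74 CPM in WT, a KO minus Het value of 1.38 ± 0.85 (edgeR adjusted p = 0.57). Without KO 2-3 that value was 1.96 (edgeR adjusted p = 0.0352), without KO 1-3 it was 0.78 (edgeR adjusted p = 0.875) and without KO 2-2 it was 1.12 (edgeR adjusted p = 0.633). H2-Ab1 was selected on the disagreement of its KO libraries, where KO 2-3 had 0 reads. The p without KO 2-3 is therefore given as a description and not as a test.

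The smallest p among the 127 belonged to Sik1, which encodes a salt-inducible kinase. It was at 39.3, 41.6 and 43.5 CPM in KO, 53.3, 50.6 and 49.8 CPM in Het and 52.4 and 53.3 CPM in WT. All 3 KO libraries lay below all 5 others. The KO minus WT value was -0.35 ± 0.07 (edgeR adjusted p = 0.174), the KO minus Het value -0.31 ± 0.07 (edgeR adjusted p = 0.152) and the value against the mean of both -0.33 ± 0.06 (edgeR adjusted p = 0.0557). The last was called by DESeq2 (adjusted p = 0.00758) and by edgeR with no filter (adjusted p = 0.00784). It was not called with other scalings or with the first number of the column names as a term (edgeR adjusted p = 0.0522 to 0.0617). Nor was it called without 1 KO or Het library (edgeR adjusted p = 0.0644 to 0.167). Hspa1b was at 1.47, 1.52 and 1.55 CPM in KO, 1.96 to 2.11 CPM in Het and 2.45 and 2.75 CPM in WT, with a KO minus WT value of -0.78 ± 0.24 (edgeR adjusted p = 0.536). Pde9a, a cyclic GMP phosphodiesterase gene, was at 24.0, 26.9 and 31.6 CPM in KO, 30.7 to 37.3 CPM in Het and 39.1 and 32.2 CPM in WT, with a KO minus WT value of -0.37 ± 0.14 (edgeR adjusted p = 0.618), or -0.23 without WT 1-2. Cd320, the transcobalamin receptor gene, was at 49.4, 48.8 and 47.6 CPM in KO, 39.4 to 44.4 CPM in Het and 39.6 and 44.7 CPM in WT, with a KO minus Het value of 0.22 ± 0.08 (edgeR adjusted p = 0.35). Cyp4f17 had a KO minus Het value of 0.57 ± 0.21 (edgeR adjusted p = 0.38), or 0.35 without KO 1-3. In Het minus WT the smallest p belonged to Abcg1, a cholesterol exporter gene (-0.59 ± 0.20), Ly6g6d (-0.76 ± 0.37) and Zfp472 (0.24 ± 0.13), with an edgeR adjusted p of 1 each.

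The tested genes most like Rps18 over the 8 libraries, by Pearson's r of log2(CPM + 0.5), were H2-Q5 (0.98), Cyp4f41-ps (0.96), 2610307P16Rik (0.95), Gm42778 (0.95) and Adgrl1 (0.92). H2-Q5, Cyp4f41-ps and H2-Ab1 (0.90) were the likest among the 127. For Glo1 they were Bcas2 (0.97), its copy Gm13443 (0.96), Psmb10 (0.96), AC165951.1 (0.95) and 2610306M01Rik (0.94), and among the 127 AC165951.1, Nfkbil1 (0.92) and Dnah8 (0.91). For H2-Ab1 they were Adamts10 (0.98), Erc2 (0.97), Mblac2 (0.97), Nelfe (0.96) and Acot2 (0.95), where Adamts10, Nelfe and H2-Q5 (0.94) belong to the 127. These are the highest values picked from all tested genes. Values of similar size with the other sign were found too, as -0.95 for Lage3, -0.93 for Gnb1 and -0.93 for Ehmt2 of the 127 against Rps18. Pearson's r takes no account of the size of a range. Adgrl1 spanned 143.5 to 161.9 CPM and Bcas2 134.4 to 147.7 CPM over the 8 libraries, while Mblac2 spanned 0.976 to 4.01 CPM. H2-Q5 had 87 reads in all and Gm42778 80. The 8 points share libraries and depth, and for each of the 3 genes the highest and the lowest point are KO libraries.

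Near the threshold, Ly6g5b and Gm26549 had 80 reads and H2-K2 85, while BC051142 had 79, Slc44a4 72 and Mir8094 71 and were left out. Of the 127 genes, 38 overlap another gene with 80 reads. Within such pairs reads cannot be told apart without strand, and the sources used here do not give the counting setting.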

How the data were processed

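Poly(A) RNA was measured in 3 KO, 3 Het and 2 WT libraries. The authors deposited 1 table of whole-number counts per gene and library, not normalized, with FPKM columns beside them. Those 8 FPKM columns were not used; FPKM given here comes from dividing counts by exonic length and library total. Per the submitters' processing notes, cutadapt 1.9.1, HISAT2 2.0.1 and HTSeq 0.6.1 were used with GRCm38 and mm10. The sources used here do not say how reads that match several places were counted. The 8 count columns name a genotype and numbers that match no label, so they were assigned by genotype.

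Levels are CPM after TMM scaling, and log2 differences use CPM + 0.5. edgeR 4.0.16 (R 4.3.3) fitted 1 mean per genotype to all 8 libraries with its default filter on low counts (16262 genes kept), and genes were called at a two-sided Benjamini-Hochberg adjusted p below 0.05. Each SE is the size of the fold change over the root of its F statistic. DESeq2 1.42.0, other scalings, no filter, the first number of the column names as a term, other sets of libraries and leaving out each library were alternatives. Copies were sought with blastn (BLAST 2.17.0) among GENCODE M21 transcripts (GRCm38).

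Genes named are Rps18, Glo1 and H2-Ab1, the 15 others with the widest range within a genotype, the smallest p per comparison, members of role lists, genes near the threshold and the likest genes. Copies and Vps52, Zfp952, Vwa7, Atp6v1g2, Vars, Ndufv3 and other neighbours were chosen after their values were seen. All members and lists were chosen with earlier results of these data known.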

Additional observations from a re-analysis of the deposited data

How the results depend on the processing

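The count of the 127 genes called was 0 in KO minus WT and in Het minus WT under every alternative run. In KO minus Het it was 4 with no filter on low counts (Sik1, Ndufv3, H2-K1 and H2-Q10) and 0 to 1 in fits that left out 1 library, where H2-Ab1 was called without KO 2-3. In KO minus the mean of Het and WT it was 1 in DESeq2 (Sik1), 4 with no filter (Sik1, Ndufv3, H2-K1 and H2-Q10) and 0 to 2 when 1 library was left out, with 1110038B12Rik called without KO 2-2, and H2-Ab1 and H2-Q6 without KO 2-3. The cause was not tested. The share of all genes called under each alternative is not given here, so nothing particular to the 127 can be read from these counts. H2-Ab1 was selected on the disagreement of its KO libraries, so its call without KO 2-3 is no test. Leaving out 1 library gave -0.55 to 0.82 for the KO minus WT value of Rps18 and -0.64 to 0.73 for KO minus Het, and -0.34 to 0.29 and -0.38 to 0.25 for Glo1. Of 249 alternative values of single genes 6 changed sign, all of them of Rps18 or Glo1 with a library left out. The count of genes with a 2-fold range within a genotype, 24, was 41 at 1.5-fold, 13 at 3-fold, 13 with a pseudocount of 2 CPM, 12 for genes at 5 CPM or more and 7 to 24 with a library left out. Within KO it was 37, 13, 13, 12 and 6 to 18, and within Het, where it was 1, it was 9 at 1.5-fold, 0 at 3-fold, with a pseudocount of 2 CPM, at 5 CPM or with 160 reads, and 0 to 1 with a library left out; within WT it was 5 at 1.5-fold. The count with KO 2-2 and KO 2-3 on opposite sides of the others, 15, was 5 at 3-fold, 8 with a pseudocount of 2 CPM and 9 at 5 CPM or more, and 15 to 16 without 1 Het or WT library; these settings were chosen after seeing the data. No paired analysis was possible because neither the labels nor the column names state a litter or a pair. A fit with the first number of the column names (1 or 2, meaning not given) as a term called 0 of the 127 in each comparison. Genes below 1 CPM rest on few reads, and a gap of a few reads is not detectable there.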
